A study of Mus musculus with 5 samples.

Results

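The genes described here encode subunits of the mitochondrial respiratory chain and of ATP synthase. They were chosen by name: a probe set counts if the platform annotation gives it a single gene symbol that starts with Nduf followed by a, b, c, s or v and a digit (complex I), is Sdha, Sdhb, Sdhc or Sdhd (complex II), or starts with Uqcr (complex III), with Cox and a digit from 4 to 8 (complex IV), or with Atp5 (complex V). Where a gene had several such probe sets, the brightest by mean log2 signal over all arrays stood for it. This gave 78 of the 12393 named genes on the array, of which 33 belong to complex I, 4 to complex II, 8 to complex III, 16 to complex IV and 17 to complex V. The rule itself uses no measured difference between groups, but the genes were chosen with earlier results of these data known.

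Liver RNA of C57B/L mice was hybridised to 5 oligonucleotide arrays, 1 for each group, and each array holds RNA from pooled livers. All mice were 8 weeks old at the start and were kept for 2 weeks before feeding. The groups were standard chow for 1 week, an atherogenic diet for 1 week, chow for 10 weeks, the diet for 10 weeks, and the diet for 10 weeks with atorvastatin over the final 3 weeks. An atherogenic diet is a feed made to raise blood cholesterol, and atorvastatin, a statin, blocks HMG-CoA reductase and so cholesterol synthesis. The sources used here do not say how many livers entered a pool or what the diet contained. Labels of the 1-week diet sample conflict: its title, description and protocols name the atherogenic diet but its source name says chow, and its title was followed. With 1 array per group no group has a replicate error, so no test was made and no p-value is given; every ratio describes a pair of pools. Comparisons that share an array are not independent. Signs and a correlation are compared below only between the diet comparisons at 10 weeks and at 1 week, which share none.

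The respiratory chain sits in the inner mitochondrial membrane. Complexes I and II feed electrons from NADH and succinate into ubiquinone, complex III passes them on to cytochrome c, and complex IV hands them to oxygen. Complexes I, III and IV pump protons, and ATP synthase, also called complex V, uses the return of the protons to make ATP. Most subunits are encoded in the nucleus, as are all genes described here, while a small core set is encoded in mitochondrial DNA. In liver the chain supports fatty acid oxidation, gluconeogenesis and urea synthesis, and hepatocytes are rich in mitochondria.

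Nuclear genes of the chain are known for short promoters bound by shared factors, among them ETS factors such as GABPA, NRF1, YY1 and the estrogen-related receptors. RefSeq promoter windows of build GRCm38.p6, 250 bases before to 50 after an annotated start, were found for 64 of the 78 genes, in 69 windows. On both strands, CCGGAAG, the core of the ETS motif, was present in 17 of the 69 windows (24.6%) and in 8.86% of all 32851 windows. GCGCATGC, part of the NRF1 motif, was present in 9 (13.0%, all windows 2.71%), AAGATGGCG, a YY1 motif, in 6 (8.70%, all windows 1.40%), and AAGGTCA, an estrogen-related receptor half-site, in 7 (10.1%, all windows 4.72%). In all, 29 windows (42.0%, all windows 16.4%) held at least 1 of the 4 strings. The NRF1 string overlaps its own reverse complement where the full palindrome stands, and a match is a match of letters, not a measured site. The 120 bases before the outermost annotated start are shown, 5′ to 3′, for genes that the results below turn on, at least 1 from each complex, with matches on either strand in capitals. The stretches lie at chr1:92473826-92473945 (minus strand) for Ndufa10, chr8:83566638-83566757 (plus strand) for Ndufb7, chr4:140961151-140961270 (plus strand) for Sdhb, chr4:116075071-116075190 (minus strand) for Uqcrh, chr5:115348959-115349078 (minus strand) for Cox6a1, chr15:102671048-102671167 (minus strand) for Atp5g2 and chr11:115419920-115420039 (minus strand) for Atp5h.
Ndufa10: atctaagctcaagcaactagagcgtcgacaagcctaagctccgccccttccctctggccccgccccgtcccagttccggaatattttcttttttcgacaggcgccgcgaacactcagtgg
Ndufb7: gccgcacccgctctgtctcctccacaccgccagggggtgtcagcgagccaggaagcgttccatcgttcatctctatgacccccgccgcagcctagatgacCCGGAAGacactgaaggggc
Sdhb: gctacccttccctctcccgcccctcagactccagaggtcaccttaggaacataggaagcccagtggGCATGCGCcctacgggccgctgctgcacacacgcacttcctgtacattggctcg
Uqcrh: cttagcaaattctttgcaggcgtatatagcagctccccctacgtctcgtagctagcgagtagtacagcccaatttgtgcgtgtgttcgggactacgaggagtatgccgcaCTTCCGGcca
Cox6a1: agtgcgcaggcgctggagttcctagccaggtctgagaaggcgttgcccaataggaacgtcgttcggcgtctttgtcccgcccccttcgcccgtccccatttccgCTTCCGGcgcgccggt
Atp5g2: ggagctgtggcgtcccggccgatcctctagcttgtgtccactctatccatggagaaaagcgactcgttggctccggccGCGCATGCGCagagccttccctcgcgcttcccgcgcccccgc
Atp5h: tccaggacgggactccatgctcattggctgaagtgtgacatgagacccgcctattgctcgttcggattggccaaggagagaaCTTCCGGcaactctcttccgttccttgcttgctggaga
In these lines the capitals mark the ETS string in Ndufb7, Uqcrh, Cox6a1 and Atp5h, and the NRF1 string in Sdhb and, as a palindrome read on both strands, in Atp5g2. Ndufa10 holds none of the 4 strings in its whole window, and is 1 of 35 such genes among the 64.

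Signals are MAS5 intensities in arbitrary units, rescaled to the same 2% trimmed mean (500.2) on each array. Signals below a floor of 138.9, the 40th percentile of all signals, were set to that floor before a ratio was taken. A gene was measured in a comparison if it lay above the floor on at least 1 of the 2 arrays. Hepatocyte markers were bright on all arrays, with a summed signal of 8 genes between 193853 on the diet at 1 week and 387132 on chow at 10 weeks. The summed signal of 10 macrophage and Kupffer cell markers ran from 9160.3 on chow at 10 weeks to 23513 with atorvastatin. Skeletal muscle markers summed to between 503 and 663 for 8 genes, with Myl1, Actn3 and Myh4 below the floor on every array. The chow array of 10 weeks stood out in its hybridisation spike signal (7497, against 1336 to 2604) and its beta-actin ratio of 3′ over 5′ signal (1.73, against 1.17 to 1.61). The atorvastatin array had an 18S ribosomal RNA signal of 13944, against 437 to 2185 on the others.

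Of the 78 genes, 73 lay above the floor on all 5 arrays. Ndufb1 did so on 3 arrays and Cox7a1 on 1, and Cox6b2, Cox7c and Cox8b on none. By the chosen probe sets, the signals of the 73 genes changed little from array to array. The highest signal of a gene over its lowest was 1.42-fold in the median, against 1.64-fold for all 6929 genes above the floor on every array. It stayed within 1.5-fold for 48 of the 73 genes (65.8%, all genes 33.4%) and went past 2-fold for 1 (1.4%, all genes 22.2%). Probe sets not chosen, but above the floor on every array, went past 2-fold for more genes. These were Cox5a (3.45), Atp5a1 (3.12), Cox6c (2.43), Ndufa12 (2.10) and Ndufa5 (2.09). The steadiest, by the chosen probe sets, was Atp5h, the d subunit in the peripheral stalk of ATP synthase, which read 9263 on chow and 9084 on the diet at 1 week, 9167 on chow and 8955 on the diet at 10 weeks, and 9804 with atorvastatin, a 1.10-fold range. The second probe set of Atp5h, nearly as bright, ranged over 1.39-fold, with a log2 ratio of -0.43 for the diet at 1 week. The chain genes were also brighter than the average gene, with geometric means of 4597 to 4971 on the 5 arrays against 681 to 713 for all genes, and the part of brightness in the narrower range was not tested. The geometric mean of the 73 genes was highest on chow at 1 week and lowest on the diet at 1 week. The chow array of 1 week held the highest signal for 20 of the 73 genes (27.4%, all genes 15.6%), and for 13 of the 32 genes of complex I. In bulk liver RNA, fewer cells of a type and less RNA per cell cannot be told apart.

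**Figure D1:**
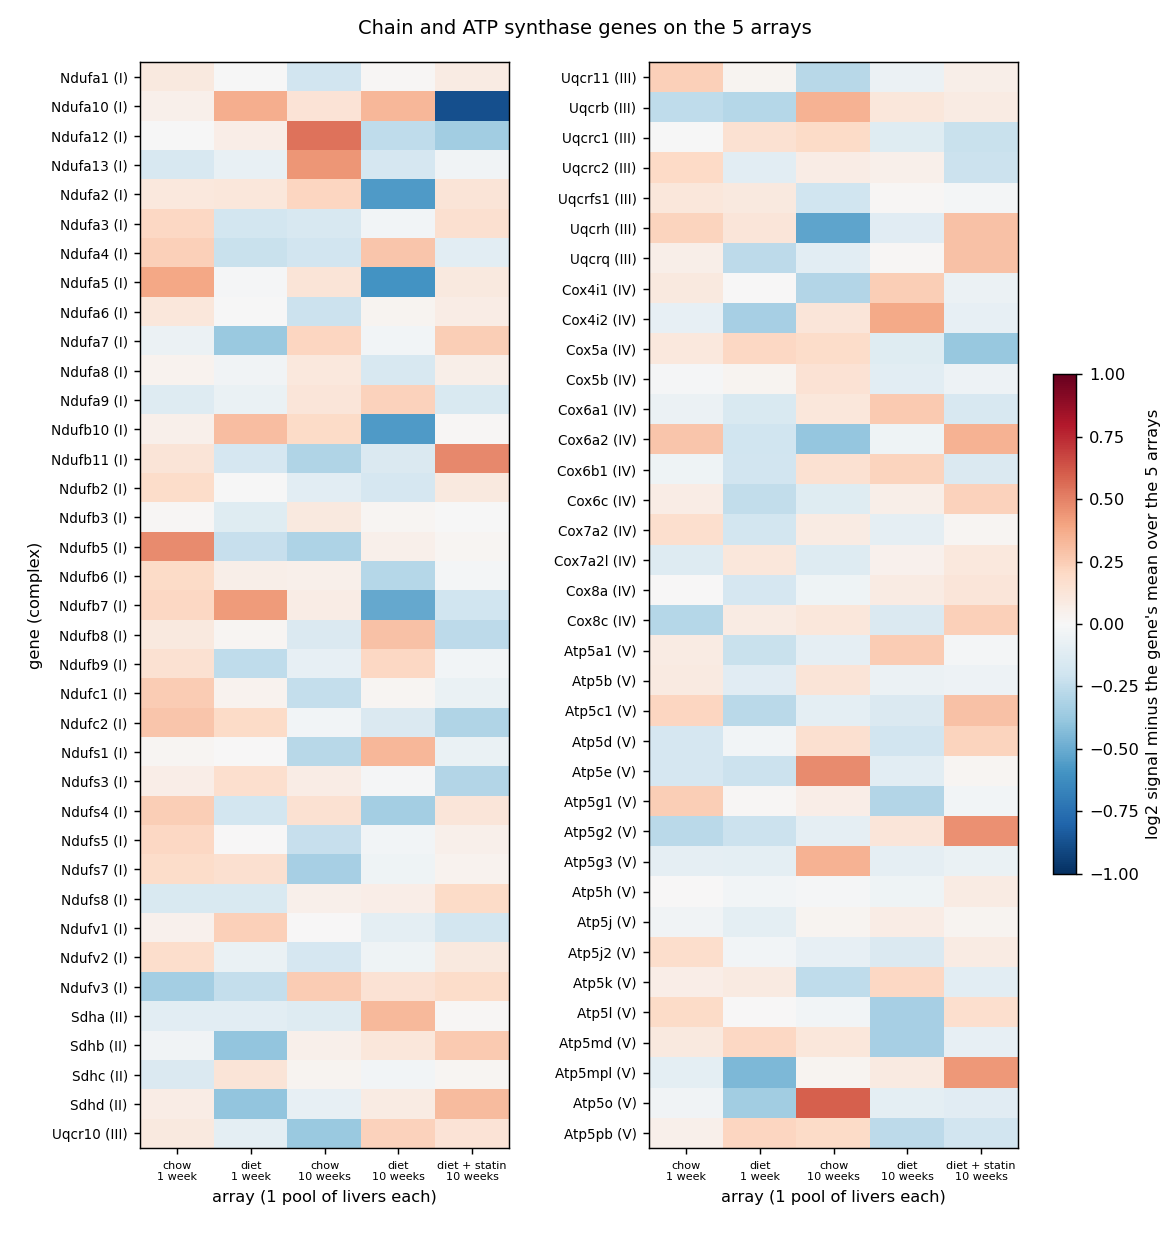
Log2 signal of each of the 73 genes above the floor on all arrays, minus the gene's own mean over the 5 arrays (colour), with genes in rows by complex and arrays in columns. Most cells are pale; the darkest is Ndufa10 with atorvastatin, where the signal was 1607 against 3063 to 3801 on the other arrays.

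After 10 weeks the diet pool and the chow pool had nearly the same level of the chain genes as a whole. The median log2 ratio of 75 measured genes was 0.01, against 0.05 for all 9232 genes. Above 0 were 38 genes and below 0 were 37, against 5017 and 4215 of all genes. Complex V was lower (median -0.19, 12 of 17 genes below 0), but only -0.03 under cyclic loess. Complexes II, III and IV were higher (0.11, 0.16 and 0.15). Over the alternatives complex II ran from 0.08 to 0.22, complex III from 0.03, against the mean of both chow arrays, to 0.28, and complex IV from 0.10 to 0.21. Complex I lay at -0.06, and at 0.10 where probe sets of the x and s types were left out. Past 2-fold was 1 of the 75 genes, Ndufb1, against 6.65% of all genes. Past 1.5-fold were 2 higher (all genes 13.8%) and 8 lower (all genes 10.9%). The 2 higher were Ndufs1 and Uqcr10, and the 8 lower were Atp5o and 7 genes of complex I. Cell type markers differed between the same pools. All 8 hepatocyte markers were lower on the diet (median -0.47), all 9 measured macrophage and Kupffer cell markers higher (0.85) and all 7 endothelial markers higher (0.63). The part of these differences in the ratios of the chain genes was not tested, here or in the other comparisons.

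At 1 week the diet pool was slightly lower than the chow pool for most of these genes. The median log2 ratio of 74 genes was -0.10, against -0.03 for all 8798 genes. Below 0 were 52 of the 74, against 4743 of the 8798. All complexes had a median below 0, from -0.18 for complex II to -0.06 for complex V, and in complex III 7 of 8 genes were below 0. The median of complex II turned to 0.07 with the mean of all probe sets of a gene, and that of complex III to 0.04 against the mean of both chow arrays. That of complex V was -0.19 without x and s probe sets. Past 2-fold was 1 gene, Ndufb1 (all genes 2.30%). Past 1.5-fold were 0 higher (all genes 6.30%) and 2 lower, Ndufb1 and Ndufb5 (all genes 7.69%). The marker medians were -0.15 for hepatocytes, -0.17 for macrophages and Kupffer cells and -0.48 for endothelium.

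With atorvastatin on the diet, set against the diet alone, the median log2 ratio of 74 genes was 0.06, against -0.02 for all 9293 genes. ATP synthase genes were higher for 13 of 17 (all genes 47.5%), with a median of 0.13. Ndufa10 was the 1 gene past 2-fold, and it was lower (all genes 4.27% in either direction). Past 1.5-fold were 3 higher, Ndufa2, Ndufa5 and Ndufb11 (all genes 9.04%), and 1 lower, Ndufa10 (all genes 10.1%). Against chow at 10 weeks, the atorvastatin pool had a median of 0.04 (all 9244 genes 0.03). There 2 of 74 genes were past 2-fold, Ndufa10 and Ndufb1, both lower (all genes 5.51%). Past 1.5-fold were 3 higher, Cox6a2, Ndufb11 and Uqcrh (all genes 11.8%), and 4 lower, Atp5o, Ndufa10, Ndufa12 and Ndufb1 (all genes 10.2%). The medians of the hepatocyte, macrophage and endothelial markers were -0.09, 0.60 and -0.20 against the diet, and -0.51, 1.43 and 0.43 against chow.

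The same-feed pairs set pools given a feed for 10 weeks against pools given that feed for 1 week. Chow at 10 weeks over chow at 1 week had a median of -0.07 over 74 genes (all 9087 genes 0.01), with 0 past 2-fold (all genes 4.39%), 5 past 1.5-fold higher (all genes 10.8%) and 4 lower (all genes 8.86%). Complex I lay at -0.23 and complex III at -0.24 in that pair, the latter at -0.03 with the mean of all probe sets. All 8 hepatocyte markers were higher there (median 0.81), and all 10 macrophage and all 7 endothelial markers lower (-0.73 and -0.57). The diet at 10 weeks over the diet at 1 week had a median of 0.03 over 75 genes (all 9086 genes 0.11), with 0 past 2-fold (all genes 8.45%), 1 past 1.5-fold higher (all genes 18.5%) and 4 lower (all genes 11.6%). Complex II lay at 0.45 there, and at 0.13 where the probe sets of a gene were averaged. The marker medians were 0.57, 0.29 and 0.54. The standard deviation of the log2 ratios over the chain genes was 0.33 in the chow pair and 0.34 in the diet pair. It was 0.37 for the diet at 10 weeks and 0.26 for the diet at 1 week, each of which shares an array with both same-feed pairs. The pools of both pairs differ in time on feed and in age. Those of the diet pair thus also differ in length of exposure to the diet.

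**Figure D2:**
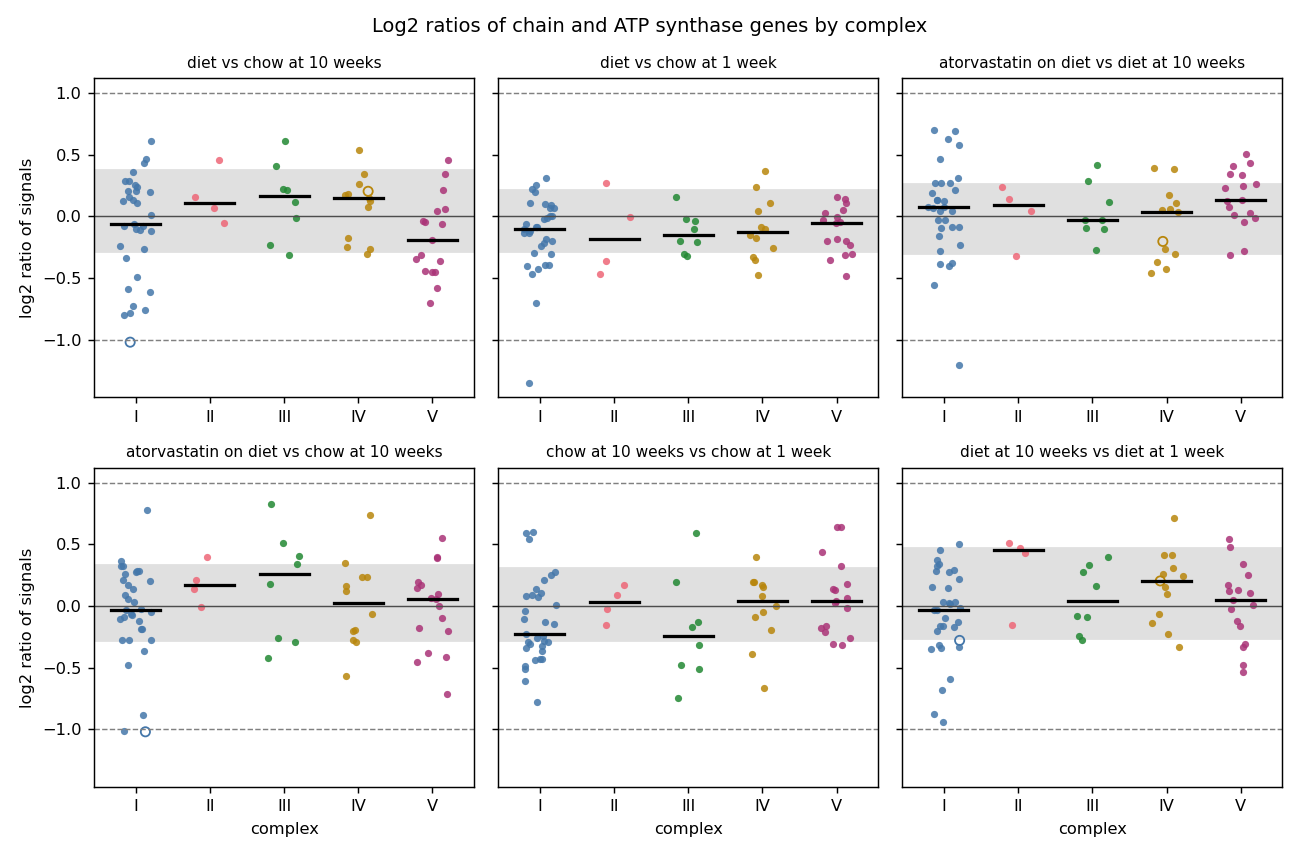
Log2 ratio of each measured gene (points) by complex for the 6 comparisons; black bars are medians, the grey band spans the quartiles of all measured genes, dashed lines mark 2-fold, and open circles are genes at the floor on 1 of the 2 arrays, for which the ratio is a bound. Few points reach the dashed lines, and the medians of the complexes lie between -0.24 and 0.45.

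Complex I oxidises NADH. Its core subunits, which as a set carry the flavin and the iron-sulfur clusters, are Ndufs1, Ndufs3, Ndufs7, Ndufs8, Ndufv1 and Ndufv2 among the genes measured. The other 27 genes are counted here as accessory, with Ndufa4, now placed in complex IV, among them. The 6 core genes had a median log2 ratio of 0.07 for the diet at 10 weeks, from -0.10 to 0.61, and none was past 1.5-fold lower. That median was -0.01 against the mean of both chow arrays and 0.15 under cyclic loess. All 7 complex I genes past 1.5-fold lower in that comparison are among the 27 accessory genes (all genes 10.9%). With only 6 core genes, and roles chosen after the values were seen, this does not set the classes apart. Ndufs1, the largest subunit, which holds several iron-sulfur clusters, read 1727 on chow and 1708 on the diet at 1 week, 1408 on chow and 2144 on the diet at 10 weeks, and 1627 with atorvastatin. It was highest on the diet at 10 weeks and 1.52-fold above chow there, while the 1-week arrays lay between those levels. Set against the mean of both chow arrays, its log2 ratio was 0.46, against 0.61, and no longer past 1.5-fold.

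Ndufb1, a small accessory subunit of the membrane arm, is dim on these arrays and has a single probe set. It read 429 on chow and 169 on the diet at 1 week, 282 on chow and 85.2 on the diet at 10 weeks, and 138 with atorvastatin. Both chow pools were above all 3 diet pools, of which the diet at 10 weeks and the atorvastatin pool were below the floor. The ratio was 2.54-fold lower on the diet at 1 week and at least 2.03-fold lower at 10 weeks, both without and with atorvastatin. The chow pools themselves differed by 1.52-fold. With a floor at the 60th percentile Ndufb1 was past 2-fold in none of these comparisons, and with a pseudocount of 100 its log2 ratio was -0.98 at 1 week and -0.68 for atorvastatin against chow.

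Ndufa10, an accessory subunit related to nucleoside kinases, read 3063 on chow and 3801 on the diet at 1 week, 3240.5 on chow and 3709.6 on the diet at 10 weeks, and 1607 with atorvastatin. The atorvastatin pool stands alone below the other 4, which lie within a log2 ratio of 0.31 of each other. Its signal was 2.31-fold below the diet at 10 weeks and 2.02-fold below chow at 10 weeks. The other probe set of the gene was below the floor on every array, so the difference rests on 1 probe set. The promoter stretch of Ndufa10 is the one shown above without a capital, but 35 of the 64 genes with a window hold none of the strings.

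Several accessory genes of complex I were lowest on the diet at 10 weeks. Ndufa5, part of the arm that reaches into the matrix, read 2897 on chow and 2201 on the diet at 1 week, 2426 on chow and 1464 on the diet at 10 weeks, and 2377 with atorvastatin. Ndufa2, a small matrix-arm subunit, read 2946 and 2954 at 1 week, 3175 on chow and 1847 on the diet at 10 weeks, and 2981 with atorvastatin. By these probe sets the diet pool of 10 weeks is the low one and the atorvastatin pool lies within the range of the others. The second probe set of Ndufa5 read 2260 and 2398 at 1 week, 1472 on chow and 1145 on the diet at 10 weeks, and 1223 with atorvastatin, so that atorvastatin is low there too, with a log2 ratio of 0.10 against the diet and not 0.70. Ndufb10, of the membrane arm, read 2395 and 2864 at 1 week, 2639 on chow and 1558 on the diet at 10 weeks, and 2320.2 with atorvastatin, the same order of the 10-week pools.

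Ndufb7, a membrane-arm subunit of the intermembrane side whose promoter holds the ETS string, read 4205 on chow and 4897 on the diet at 1 week, 3845 on chow and 2557 on the diet at 10 weeks, and 3179 with atorvastatin. It was highest on the diet at 1 week and lowest on the diet at 10 weeks, a log2 difference of -0.94 between them. The other probe set of Ndufb7 gave a log2 ratio of -0.21 for the diet at 10 weeks, against -0.59 for the chosen one. For Ndufa5 the other probe set gave -0.36, against -0.73. Set against the mean of both chow arrays, these genes stayed past 1.5-fold lower on the diet at 10 weeks, with log2 ratios of -0.86 for Ndufa5, -0.73 for Ndufa2, -0.69 for Ndufb10 and -0.65 for Ndufb7.

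A different pattern held for Ndufa12 and Ndufa13, where the chow pool of 10 weeks was the high one. Ndufa12, an accessory subunit of the matrix arm, read 5696 and 5956 at 1 week, 8283 on chow and 4774 on the diet at 10 weeks, and 4481 with atorvastatin. Ndufa13, also known as GRIM-19, read 5771 and 6142 at 1 week, 8768 on chow and 5750.0 on the diet at 10 weeks, and 6309 with atorvastatin. Chow at 10 weeks is above the other 4 pools in both, and those 4 include the chow pool of 1 week. Set against the mean of both chow arrays, the log2 ratio of the diet at 10 weeks was -0.53 for Ndufa12 and -0.31 for Ndufa13, neither past 1.5-fold. The other probe sets of Ndufa12 above the floor gave -0.38 and 0.00 for the diet at 10 weeks, against -0.80 for the chosen one.

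Ndufb5 and Ndufb11, both of the membrane arm, set other pools apart. Ndufb5 read 6624 on chow at 1 week and 4070.3 on the diet at 1 week, 3863 on chow and 4942 on the diet at 10 weeks, and 4832 with atorvastatin, so that the chow pool of 1 week is the high one. Its log2 ratio was -0.70 for the diet at 1 week and -0.78 between the chow pools. Set against the mean of both chow arrays, the ratio at 1 week was -0.31 and no longer past 1.5-fold. The other probe set of Ndufb5 gave -0.19 at 1 week and -0.01 at 10 weeks, and -0.77 between the chow pools. Ndufb11 read 7792 and 6327 at 1 week, 5796 on chow and 6462 on the diet at 10 weeks, and 9959.9 with atorvastatin, the highest of its signals. Its other probe sets, also bright, did not show this: for atorvastatin against chow both gave 0.00, against 0.78, and against the diet 0.07 and 0.45, against 0.62. One of them ranged over only 1.05-fold on the 5 arrays. Ndufa4, named as a complex I gene but now placed in complex IV, was 1.38-fold higher on the diet than on chow at 10 weeks and had the highest ratio of complex I between the diet pools (0.50).

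**Figure D3:**
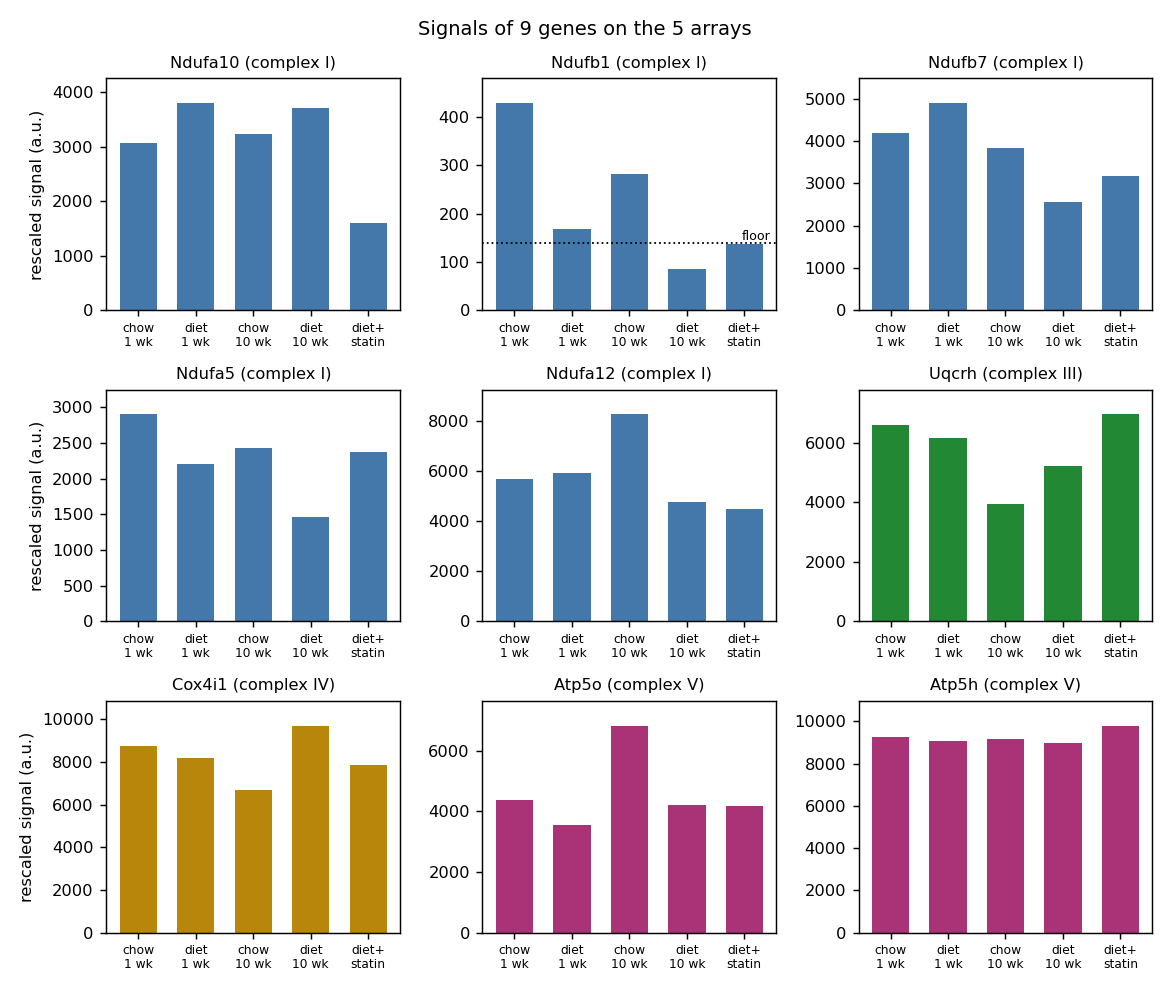
Rescaled signal (arbitrary units, linear axis from 0) of 9 genes on the 5 arrays, 1 bar for each array, coloured by complex; the dotted line in the Ndufb1 panel is the floor of 138.9. Ndufa10 is low with atorvastatin only, Ndufa5 and Ndufb7 are lowest on the diet at 10 weeks, Ndufa12 and Atp5o are highest on chow at 10 weeks, Uqcrh is lowest there, and Atp5h is level, each by its chosen probe set.

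Complex II, succinate dehydrogenase, is also an enzyme of the citric acid cycle, and by the chosen probe sets none of its 4 genes was past 1.5-fold in any of the 6 comparisons. Sdha, the flavoprotein, read 4824 on chow and 4818 on the diet at 1 week, 4735 on chow and 6499 on the diet at 10 weeks, and 5208 with atorvastatin, and was highest on the diet at 10 weeks. Its second probe set was highest there too (4728) but lowest with atorvastatin (2748), a log2 ratio of -0.78. Sdhb, the iron-sulfur subunit, read 7017 and 5476 at 1 week, 7459 on chow and 7797 on the diet at 10 weeks, and 8616 with atorvastatin. Sdhd, a membrane anchor, read 5266 and 3807 at 1 week, 4728 and 5276 at 10 weeks, and 6229 with atorvastatin. Sdhb and Sdhd share their extremes, with the diet at 1 week lowest and atorvastatin highest. Sdhc, the other anchor, had neither of these extremes. It read 2504 on chow and 3021 on the diet at 1 week, and 2718 to 2818 on the arrays of 10 weeks. The second probe set of Sdhc, about as bright, was lower on the diet at 1 week (-0.10, against 0.27). Its lowest signal was on chow at 10 weeks (1968) and its highest on chow at 1 week (2693). A second, dimmer probe set of Sdhd went against the chosen one, with log2 ratios of -0.86 for the diet at 10 weeks and 0.59 at 1 week, against 0.16 and -0.47.

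By the chosen probe sets, the small subunits of complex III had the widest signal ranges. Uqcrh, the hinge protein that helps cytochrome c dock, read 6606 on chow and 6164 on the diet at 1 week, 3930.1 on chow and 5218 on the diet at 10 weeks, and 6949.9 with atorvastatin. The chow pool of 10 weeks was lowest, 1.77-fold below atorvastatin and by a log2 difference of -0.75 below chow at 1 week. Uqcr10, a small membrane subunit, was also lowest there, with 2749 on chow and 4188 on the diet at 10 weeks, 3922 with atorvastatin, and 3819 and 3325 at 1 week. Its other probe sets gave 0.04 and -0.26 for the diet at 10 weeks, against 0.61 for the chosen one, which was 0.37 against the mean of both chow arrays.

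The core and the other subunits of complex III moved less or in other directions, again by the chosen probe sets. Uqcrc1 and Uqcrc2, the core proteins, had log2 ratios of -0.31 and -0.02 for the diet at 10 weeks, and Uqcrfs1, the Rieske iron-sulfur protein, 0.21. The second probe set of Uqcrc2 gave -0.91. Uqcrb, which binds near the ubiquinone site, read 19496 on chow and 19044 on the diet at 1 week, 29451 on chow and 25064 on the diet at 10 weeks, and 24543 with atorvastatin. All 3 pools of 10 weeks were above both pools of 1 week, and its log2 ratio between the chow pools was 0.60. It turned to -0.01 under quantile normalization, and the second probe set of Uqcrb gave -0.15.

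Complex IV, cytochrome c oxidase, has subunits with liver-type and heart- or muscle-type isoforms. The common isoform genes were bright and steady. Cox4i1, the regulatory subunit in its common form, read 8765 on chow and 8183 on the diet at 1 week, 6683 on chow and 9710.5 on the diet at 10 weeks, and 7845 with atorvastatin, 1.45-fold from lowest to highest. Its log2 ratio of 0.54 for the diet at 10 weeks was the highest of the complex. Cox6a1, whose promoter stretch holds the ETS string, lay between 12043 with atorvastatin and 16168 on the diet at 10 weeks. Cox6b1 lay between 10349.5 and 13805, Cox7a2 between 12443 and 15904, Cox7a2l, a factor in supercomplex assembly, between 2205 and 2605, and Cox8a between 6112 and 7479. None of these went past 1.5-fold in a comparison.

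The genes of the tissue-restricted isoforms were dim, apart from Cox8c. Cox4i2, the form linked to low oxygen and lung, read 223 and 187 at 1 week, 255 on chow and 306 on the diet at 10 weeks, and 222 with atorvastatin, a log2 ratio of 0.71 between the diet pools. Cox6a2, the heart and muscle form, read 353 and 254 at 1 week, 223 on chow and 283 on the diet at 10 weeks, and 372 with atorvastatin, 1.67-fold above chow at 10 weeks. With a floor at the 60th percentile these values fell to log2 ratios of 0.12 for Cox4i2 and 0.40 for Cox6a2, since part of the signals lay under that floor. Cox7a1, the muscle form, reached 159.9 on the diet at 10 weeks and 27.2 to 93.4 elsewhere. Cox8b, another muscle form, stayed between 12.9 and 27.2, and Cox6b2, known from testis, between 28.5 and 114.6. Cox8c, also known from testis, read 899 to 1292 on the 5 arrays without passing 1.5-fold. Skeletal muscle markers were dim on every array, as given above.

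Cox7c is a common subunit, and its 2 probe sets named here were below the floor on all 5 arrays, with 58.4 to 136.7 for the chosen one. Cox5a, a subunit on the matrix side, had the lowest ratio of complex IV for the diet at 10 weeks (-0.31) and for atorvastatin against chow (-0.57), with 10301 and 11083 at 1 week, 10895 on chow and 8814 on the diet at 10 weeks, and 7348 with atorvastatin. Its second probe set above the floor gave -0.24 for the diet at 10 weeks.

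ATP synthase was lower on the diet than on chow at 10 weeks by its median, though close to 0 under cyclic loess, as given above. By part, the median log2 ratio was -0.19 for the 5 genes of the catalytic F1 head and -0.36 for the 3 genes of the c ring. It was -0.24 for the 4 genes of the peripheral stalk and -0.06 for 5 small membrane subunits. Over the alternatives these medians rose as far as -0.03 for the head and -0.12 for the c ring. Those of the stalk and the small subunits changed sign, to 0.00 without x and s probe sets and to 0.07 under cyclic loess. The exceptions above 0.2 were Atp5a1 (0.34), the alpha subunit of the head, Atp5k (0.46), the e subunit, and Atp5g2 (0.22). Atp5o, the stalk subunit known as OSCP, had the lowest ratio of the complex. It read 4393 on chow and 3536 on the diet at 1 week, 6835 on chow and 4208 on the diet at 10 weeks, and 4176 with atorvastatin, so that chow at 10 weeks is the high pool. Atp5e, the epsilon subunit of the head, had the same high pool, with 4261 against 2657 to 3116 elsewhere. The log2 ratio of Atp5o for the diet at 10 weeks was -0.70, -0.36 with the mean of all probe sets and -0.38 against the mean of both chow arrays. The second, dimmer probe set of Atp5o gave -0.02. It read 558 on chow at 10 weeks and was highest on the diet at 1 week (744).

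The genes Atp5g1, Atp5g2 and Atp5g3 encode the same c-ring protein behind different import signals. Atp5g3 read 17794 and 17725 at 1 week, 24120 on chow and 17786 on the diet at 10 weeks, and 18090 with atorvastatin, with chow at 10 weeks high and the other 4 pools level. Atp5g1 read 6018 and 5113 at 1 week, 5324 on chow and 4141 on the diet at 10 weeks, and 4973 with atorvastatin, lowest on the diet at 10 weeks. Atp5g2, with the NRF1 palindrome in its promoter stretch, read 3167 and 3290.3 at 1 week, 3584 on chow and 4167 on the diet at 10 weeks, and 5259.8 with atorvastatin, which is the highest. The 3 genes thus had 3 different orders of the pools. For atorvastatin against the diet all 3 were above 0, from 0.02 to 0.34.

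The diet comparisons at 10 weeks and at 1 week share no array. Of the 73 genes above the floor on all arrays, 6 were higher on the diet at both times and 20 lower at both. Opposite signs were found for 31 genes that were above 0 at 10 weeks and below 0 at 1 week, and for 16 the other way round. Signs were thus opposite in 64.4% of these genes, against 53.7% of all 7082 genes above the floor on these 4 arrays. Lower at both times were 27.4% (all genes 22.3%) and higher at both 8.2% (all genes 24.0%). Across these genes the Pearson correlation of the ratios was -0.28, against -0.07 over all 7082; genes of a complex are not independent points. Among the 20 lower at both times were Ndufa5 (-0.73 at 10 weeks and -0.40 at 1 week) and Atp5o (-0.70 and -0.31). These counts and examples rest on the chosen probe sets. The other probe set of Ndufa5 gave -0.36 and 0.09, and that of Atp5o -0.02 and 0.13, so neither was lower at 1 week.

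**Figure D4:**
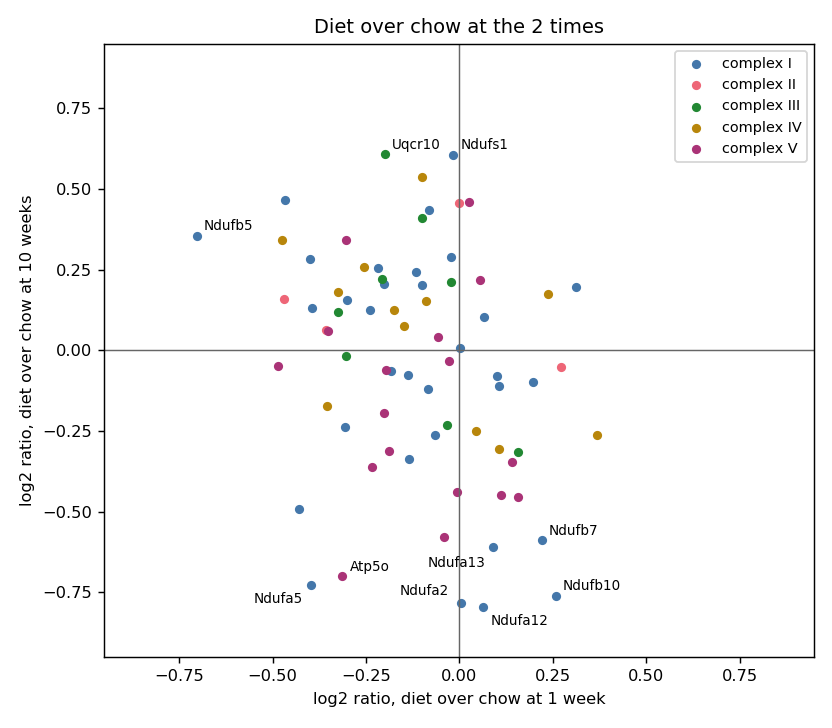
Log2 ratio of diet over chow at 1 week (x axis) and at 10 weeks (y axis) for 73 genes, 1 point for each gene, coloured by complex, with genes past 1.5-fold at either time named. The upper left part holds 31 genes and the lower right 16; Ndufa2, Ndufa12 and Ndufb10 are low at 10 weeks and close to or above 0 at 1 week.

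Promoter strings were set beside the ratios. The 17 genes with the ETS string had a median log2 ratio of 0.04 for the diet at 10 weeks and -0.09 at 1 week, and the 9 with the NRF1 string 0.15 and -0.09. The 32 measured genes with a window but none of the 4 strings had -0.10 at 10 weeks, and 31 of them -0.10 at 1 week. Over the alternatives the 10-week medians ran from -0.04 to 0.16 with the ETS string, from 0.06 to 0.29 with the NRF1 string, and from -0.11 to 0.11 with none. These medians are descriptions of small sets with no error of their own.

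Other genes of the pathway varied more from array to array in most lists. Among those above the floor on all arrays, the highest signal was past 2-fold over the lowest for 8 of 33 assembly factors, 4 of 17 citric acid cycle genes and 3 of 15 regulators of mitochondrial biogenesis, against 1 of 73 chain genes and 22.2% of all genes. It was so for 1 of 14 electron carrier and ubiquinone genes and 0 of 6 transporters and porins. All of this rests on the brightest probe set of each gene. Other probe sets of some chain genes went past 2-fold, as given above. Of the chain subunits that the name rule does not take, only Ndufab1, the acyl carrier protein, Cyc1, the cytochrome of complex III, and the ATP synthase inhibitor Atpif1 have a named probe set here; the subunits encoded in mitochondrial DNA were not analysed here. Cyc1 read 7148.5 and 6389.5 at 1 week, 7447 on chow and 6900.2 on the diet at 10 weeks, and 5601 with atorvastatin, the lowest. Assembly factors, which help build the complexes, had a median of 0.00 over 36 genes for the diet at 10 weeks, with 1 past 2-fold, Acad9 (1.55), a complex I assembly factor (all genes 6.65%). In the other comparisons the assembly factors past 2-fold were Higd1a for atorvastatin against the diet (-1.04), Ndufaf4 (-1.01) and Cox16 (1.05) for atorvastatin against chow, Timmdc1 between the chow pools (1.20), and Acad9 (1.02), Timmdc1 (1.18) and Cox15 (-1.46) between the diet pools. For the diet at 1 week 0 of 36 were past 2-fold (all genes 2.30%). These counts are near or below the shares of all genes given above.

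Regulators of mitochondrial biogenesis and mitochondrial DNA were lower on the diet at 10 weeks by the median (-0.35 over 18 genes). Below 0 were 11 of them, against 4215 of all 9232 genes. At 1 week their median was 0.12 over 17 genes. Tfb2m, a transcription factor of mitochondrial DNA, was the 1 of 18 past 2-fold at 10 weeks (all genes 6.65%), with 1034 and 1097 at 1 week, 2008 on chow and 576 on the diet at 10 weeks, and 628 with atorvastatin. Chow at 10 weeks was its highest pool and the diet at 10 weeks its lowest. Gabpa, the DNA-binding subunit of the ETS factor named above, read 471 and 409 at 1 week, 577 on chow and 369 on the diet at 10 weeks, and 279.8 with atorvastatin, a log2 ratio of -1.04 for atorvastatin against chow. The coactivator genes Ppargc1a and Ppargc1b had ratios of -0.52 and -0.76 for the diet at 10 weeks, Tfam -0.34 and Nrf1 0.49.

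Citric acid cycle genes had medians of 0.11 for the diet at 10 weeks, 0.13 at 1 week and -0.18 with atorvastatin against the diet, over 17 genes, with 0 past 2-fold in each (all genes 6.65%, 2.30% and 4.27%). Between the diet pools 3 of the 17 were past 2-fold (all genes 8.45%), Ogdh (-1.59) and Dlst (-1.29), of the oxoglutarate dehydrogenase complex, and Suclg2 (1.13), of succinyl-CoA ligase. Electron carriers and ubiquinone synthesis genes had medians of 0.15 at 10 weeks over 14 genes and -0.02 at 1 week over 15, with 0 past 2-fold in both, and Sqor was past 2-fold between the diet pools (1.07). Cycs, cytochrome c, which links complexes III and IV, had a ratio of -0.53 at 10 weeks and -0.22 at 1 week. The adenine nucleotide, phosphate, porin and uncoupling protein genes had medians of 0.08 and 0.02 over 7 genes, with 0 past 2-fold.

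Probe sets of the same gene did not always give the same answer. For the diet at 10 weeks, 39 genes had 2 or more probe sets above the floor on both arrays, and the largest difference from the chosen one was 0.36 on the log2 scale in the median; in 20 of the 39 a probe set had the opposite sign. Differences above 1 were found for Atp5a1 (0.34 chosen, -1.34 other), Ndufs4 (-0.49 and 0.56) and Sdhd. The other probe set of Atp5a1 was dim, with 244 and 350 at 1 week and 763, 301 and 277 at 10 weeks on chow, the diet and atorvastatin. Elsewhere they were found for Cox6c with atorvastatin against the diet (0.17 and -1.28), Cox5a between the diet pools (-0.33 and -1.65), and Sdhd at 1 week and between the diet pools (0.47 and -0.76). That probe set of Atp5a1 also differed for atorvastatin against chow (0.06 and -1.46) and, by the most, between the chow pools (-0.17 and 1.64).

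**Figure D5:**
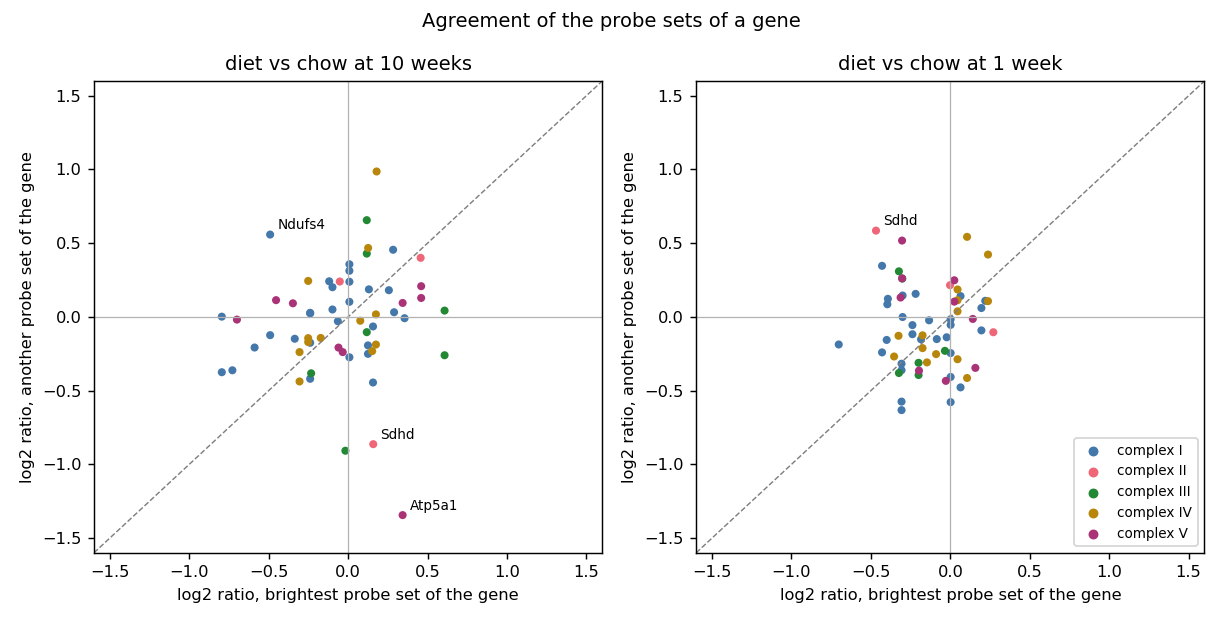
Log2 ratio of the chosen, brightest probe set (x axis) and of each other probe set of the same gene (y axis), both above the floor on both arrays, for the diet at 10 weeks (left) and at 1 week (right); the dashed line is equality and named genes differ by over 1. Many points lie off the line, in 20 of 39 genes at 10 weeks and 19 of 39 at 1 week with opposite signs.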

How the data were processed

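RNA of pooled livers was measured on 1 array for each of 5 groups. For every probe set the authors deposited 1 intensity per array, linear and not logged, made with MAS5, per the submitters' processing notes. On the deposited table the 2% trimmed mean came to 500.2 on each array. Detection calls were not used here.

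From these intensities, arrays were rescaled to a common 2% trimmed mean, control probe sets (64 of 22690) were left out, signals were floored at the 40th percentile (138.9), and log2 ratios were taken. Probe sets were named from the platform annotation; 7 with several symbols that match the name rule were left out, and all 78 genes matched the gene table of GRCm38.p6. Genes past 2-fold or 1.5-fold were counted beside all measured genes. No test was made, since each group is 1 array. A fold against an array at the floor is a lower limit.

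The genes, lists, motifs and rule for named genes were chosen with earlier results of these data known. The rule names, in each comparison, genes past 2-fold and the highest and lowest of each complex, all Sdh genes, isoform sets, and genes whose probe sets differ by over 1 on the log2 scale. The genes past 1.5-fold, the roles within complexes I and V and the other single genes named were chosen after their values were seen. Pathway and marker lists are given by counts or sums. The alternatives changed the scaling (none, quantile or cyclic loess), the floor (the 20th or the 60th percentile, or a pseudocount of 100 in its place), the probe sets used (their mean, or those without x or s in the name), the fold (1.5) and the reference (both chow arrays averaged). The ratio steps were tested on simulated data. Python 3.11.15, pandas 2.3.3, R 4.3.3 and limma 3.58.1 were used. The number of arrays limits the precision.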

Additional observations from a re-analysis of the deposited data

Results flagged for a closer look

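The diet comparisons at 10 weeks and at 1 week went in opposite directions for the medians of 3 complexes and for 8 genes past 1.5-fold at either time. With 1 array per group these differences were not tested. Signs were opposite in 53.7% of all 7082 genes above the floor on the 4 arrays. The 8 genes were picked for a large ratio at 1 or both times. For the medians, the log2 ratio at 10 weeks minus that at 1 week was 0.29 for complex II (0.11 and -0.18), 0.31 for complex III (0.16 and -0.15) and 0.27 for complex IV (0.15 and -0.12). The signs of complexes II and III at 1 week changed with the processing, as given below.

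Of the genes higher at 10 weeks and lower at 1 week, the difference of the log2 ratios was 1.06 for Ndufb5 (0.36 and -0.70, the latter -0.31 against both chow arrays averaged; the other probe set gave -0.01 and -0.19, not opposite), 0.81 for Uqcr10 (0.61 and -0.20) and 0.62 for Ndufs1 (0.61 and -0.02). Of those lower at 10 weeks and higher at 1 week, it was -1.02 for Ndufb10 (-0.76 and 0.26), -0.86 for Ndufa12 (-0.80 and 0.06), -0.81 for Ndufb7 (-0.59 and 0.22), -0.79 for Ndufa2 (-0.78 and 0.00) and -0.70 for Ndufa13 (-0.61 and 0.09). Dimmer probe sets gave -0.26 and -0.39 for Uqcr10, not opposite, and 0.00 and -0.48 for Ndufa12. For Ndufs1 and Ndufa2 the ratio at 1 week was close to 0.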

How the results depend on the processing

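The medians over the chain genes moved by no more than 0.1 on the log2 scale in any of the 51 values recomputed. They ranged from -0.03 to 0.10 for the diet at 10 weeks and from -0.13 to -0.08 at 1 week. Some of the alternatives could hardly move a value, as given below. The counts past 2-fold are small and 18 of 57 moved by over 1.5 times. The 57 include the 1.5-fold rule, under which a count can only stay or rise, and it rose in every comparison. For the diet at 10 weeks the count of 1 became 3 with a lower floor, at the 20th percentile, and 0 with a higher one, at the 60th. At 1 week the count of 1 became 0 with that same higher floor and with a pseudocount of 100. For atorvastatin against chow the count of 2 became 1 under quantile normalization, cyclic loess, the floor at the 60th percentile and both chow arrays averaged, and 0 with the pseudocount. Between the chow pools 0 became 1 with the floor at the 20th percentile, as it did between the diet pools, there also with the pseudocount. With a 1.5-fold rule the counts were 10 for the diet at 10 weeks, 2 at 1 week, 4 for atorvastatin against the diet, 7 against chow, 9 between the chow pools and 5 between the diet pools. Uqcrb between the chow pools changed sign, to -0.0112 under quantile normalization. The cause of these changes was not tested.

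Of 311 values for single genes past 1.5-fold, 294 moved by less than the SD of the chain genes' log2 ratios between the chow pools, 16 moved further and 1 changed sign. Of 30 complex medians, 12 changed sign under at least 1 alternative, among them, for atorvastatin against the diet, complex IV, to -0.26 without x and s probe sets. At 1 week the sign changed for complex II, to 0.07 with the mean of all probe sets, and for complex III, to 0.04 with the mean of both chow arrays; at 10 weeks it did for complex I, to 0.10 without x and s probe sets. No scaling moved the median of all genes by over 0.1. Replicates could not be paired, since each group is 1 array, and a fit of feed and time over the 4 arrays without atorvastatin was not made. Signals under the floor have no order, and the number of arrays limits the precision of all values.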
